A study of Mus musculus with 6 samples.

Results

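The p53 pathway and the cyclin-dependent kinase (CDK) inhibitors were followed here through 10 genes: Trp53, its negative regulator Mdm2, its target Ccng1, the Cip/Kip inhibitor genes Cdkn1a, Cdkn1b and Cdkn1c, and the Ink4 inhibitor genes Cdkn2a, Cdkn2b, Cdkn2c and Cdkn2d. They were chosen by gene symbol, and 10 of 10 were found among the 16440 genes of the expression table. The APL group was c-Kit+ leukemic bone marrow cells of mouse acute promyelocytic leukemia (APL), a leukemia arising in mice of the FVB N/J strain that carry PML/RARα under the myeloid hMRP8 promoter. These cells had been GFP-labeled with a retrovirus (MigR1), expanded in vivo in syngeneic FVB N/J recipients and sorted as GFP+c-Kit+ cells without drug treatment. By the paper's methods, labeling included culture with cytokines and polybrene, and labeled cells were first grown in sublethally irradiated mice. The MP group was Lin-Sca-1-c-Kit+ myeloid progenitors sorted from the bone marrow of normal FVB N/J mice, which were neither labeled nor transplanted. The leukemia, the GFP labeling with its culture, the transplantation, any irradiation of hosts and unlike sorting gates cannot be told apart between the groups. The recipients were young adult mice when transplanted. The age of the MP donors and the number of animals behind a library are not given in the sources used here. Each group had 3 libraries, described by the submitters as biological replicates.

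The p53 protein is a transcription factor that is activated by DNA damage and by oncogene signaling. It raises p21 (the product of Cdkn1a), apoptosis genes and its own ubiquitin ligase Mdm2, which in turn degrades it. The Cip/Kip proteins p21, p27 (Cdkn1b) and p57 (Cdkn1c) bind cyclin-CDK complexes, mainly those of Cdk2, whereas the Ink4 proteins p16Ink4a (Cdkn2a), p15 (Cdkn2b), p18 (Cdkn2c) and p19Ink4d (Cdkn2d) bind Cdk4 and Cdk6 and keep them from D-type cyclins. The Cdkn2a locus also codes for Arf, an inhibitor of Mdm2, from an alternative reading frame.

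The table held between 22976905 and 26932327 fragments per library in the MPs and between 20608715 and 28382785 in the APL cells, before scaling. Levels below are the deposited fragments per gene, scaled for library size, given for libraries 1 to 3 in order. Differences are log2(scaled fragments + 1) in APL minus MP with the standard error (SE), tested with limma over the 14595 genes that reached at least 1 scaled fragment in at least 3 of 6 libraries. A gene was called at a Benjamini-Hochberg adjusted p under 0.05 with a fold change over 1.5. A large part of the transcriptome passed, namely 24.4% of the genes tested as lower and 21.7% as higher in APL, and the median difference of all genes was -0.10. Of the 10 genes, 9 were tested, of which 4 were higher (Cdkn1a, Cdkn1c, Cdkn2a and Cdkn2c), 2 were lower (Trp53 and Cdkn2d) and 3 were not called (Mdm2, Ccng1 and Cdkn1b). Their median difference was 0.16, with Cdkn2a at its fitted value or at its lower bound. In 5 of the 9 every APL library was above every MP library (31.1% of all genes tested) and in 2 every APL library was below (39.8%), 7 in all against 70.9% of all genes. Cdkn2a counted among the 4 called higher and the 5 above, but it passed the filter through the APL libraries alone. With 0 fragments in every MP library, its direction was fixed in advance. Since 46.1% of all genes tested were called either way, the number of calls is no result about these genes, and each is described by its own size.

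**Figure D1:**
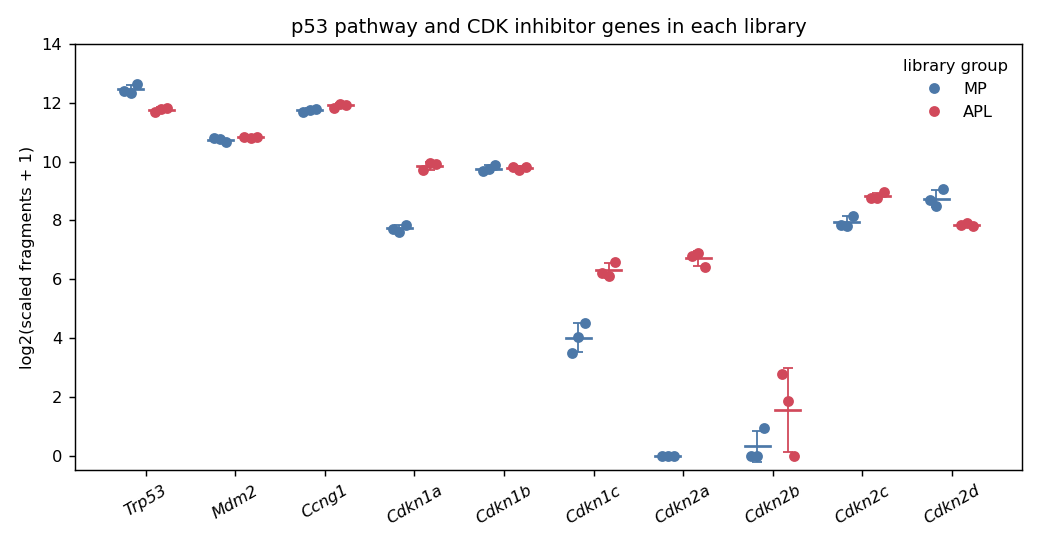
Level of each of the 10 genes in each library. The vertical axis is log2(scaled fragments + 1), points are single libraries (3 MP, 3 APL), horizontal lines are group means and bars are SD. Trp53 has the highest points in MPs and Ccng1 in APL cells, Cdkn2a is at 0 in the 3 MP libraries, and the points of Cdkn1b overlap between the groups.

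Trp53 itself was lower in APL progenitors. Trp53 (GRCm38 chr11:69580359-69591873) had 5427, 5196 and 6340.0 scaled fragments in MPs and 3307, 3521 and 3648 in APL cells. All 3 APL libraries lay below all 3 MP libraries. The means were 5654 ± 605 and 3492 ± 172 (SD, n = 3 each), and the fitted level was 1.61-fold lower in APL (difference -0.69, SE 0.09, limma adjusted p = 0.00013). Per transcript length it was nevertheless the highest of the 10 genes in both groups, at 136.9 ± 11.8 FPKM (fragments per kilobase of transcript, relative to the mapped fragments of the library) in MPs and 85.3 ± 3.65 FPKM in APL cells.

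Mdm2 (chr10:117688905-117710716), the ubiquitin ligase for p53, was not called. It had 1779, 1736 and 1618 scaled fragments in MPs and 1843, 1768 and 1840.2 in APL cells. The ranges of the groups overlapped, and the difference was 0.09 (SE 0.07, 95% interval -0.07 to 0.24, limma adjusted p = 0.28). The interval lay inside the 1.5-fold threshold, and the sign turned to -0.04 both with all libraries scaled to the same total and with voom weights. Ccng1 (chr11:40748552-40755286), which codes for cyclin G1, a p53 target that acts on Mdm2, had 3294, 3489 and 3574 scaled fragments in MPs and 3649, 3989 and 3913 in APL cells. The APL libraries lay above the MP libraries, but the difference was 0.16 (SE 0.07, 95% interval -0.00042 to 0.31, limma adjusted p = 0.072) and Ccng1 was not called.

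Cdkn1a (chr17:29090986-29100722) was the p53 target among the 10 genes that rose. It had 208, 194 and 231 scaled fragments in MPs and 834, 1000.4 and 963 in APL cells. No APL library came near the MP range, and the means of 211 ± 18.5 and 932 ± 87.1 (SD, n = 3 each) gave a fitted 4.40-fold higher level in APL (difference 2.14, SE 0.11, limma adjusted p = 4.3e-07). Among all genes tested, 6.33% had a larger increase. Thus Trp53 was lower, Cdkn1a was higher, and Mdm2 and Ccng1, whose transcription p53 also raises, were not called.

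The sequence before the start sites of these p53 targets is shown because, of these 3, Cdkn1a was called higher while Mdm2 and Ccng1 were not called. RefSeq on GRCm38.p6 gave 12 start sites for 9 of the 10 genes, and the 250 bases before each were searched on both strands for the p53 response element, a pair of adjacent 10-letter copies with no spacer, the central C and G of each copy fixed and at most 1 mismatch in 20 bases. Such a match was present in 0.0578% of 32851 windows of all genes, and in 2 of the 12 windows here, 1 of Cdkn1a and 1 of Ccng1. Both genes are known p53 targets, so this share is no independent result. In the following windows, written 5′ to 3′ on the strand of the gene, capitals mark the match.
Cdkn1a, upstream start (GRCm38.p6 chr17:29090729-29090978, plus strand): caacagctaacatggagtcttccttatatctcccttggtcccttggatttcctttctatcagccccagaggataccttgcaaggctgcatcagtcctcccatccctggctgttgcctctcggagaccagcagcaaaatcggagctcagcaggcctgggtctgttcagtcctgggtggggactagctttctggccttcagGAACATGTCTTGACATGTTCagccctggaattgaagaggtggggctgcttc
Ccng1 (GRCm38.p6 chr11:40755287-40755536, minus strand): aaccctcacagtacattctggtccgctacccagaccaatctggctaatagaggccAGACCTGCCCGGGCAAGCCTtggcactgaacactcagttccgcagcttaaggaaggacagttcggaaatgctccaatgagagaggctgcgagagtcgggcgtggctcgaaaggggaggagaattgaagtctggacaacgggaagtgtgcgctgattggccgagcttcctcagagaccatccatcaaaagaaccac
Mdm2 (GRCm38.p6 chr10:117710759-117711008, minus strand): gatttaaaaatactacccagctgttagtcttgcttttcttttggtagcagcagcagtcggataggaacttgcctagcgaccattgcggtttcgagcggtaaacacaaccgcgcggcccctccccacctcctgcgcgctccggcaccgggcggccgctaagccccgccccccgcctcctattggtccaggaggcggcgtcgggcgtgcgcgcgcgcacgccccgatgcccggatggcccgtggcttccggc

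The match before Cdkn1a (chr17:29090928-29090947) ended 31 bases before the upstream start, and the match before Ccng1 (chr11:40755462-40755481) ended 175 bases before its start. Each had 1 mismatch. The window of Mdm2 held none, which says only that this pattern is not in these 250 bases. The other Cdkn1a start lies 2790 bases downstream, and its window held 2 GC boxes (GGGCGG or its complement) and no match. A GC box was present in 6 of the 12 windows, against 32.7% of all windows. Reads of the Cdkn1a starts are not separated in the table.

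The wider p53 target list moved in both directions. Of 40 listed target genes, 38 were tested, of which 13 were called higher (34.2%, background 21.7%) and 6 lower (15.8%, background 24.4%), and the median difference was 0.17. Among those with a mean of at least 100 scaled fragments, the 3 largest increases were of apoptosis genes. Perp, a membrane protein gene of p53-dependent apoptosis, had 16.9, 17.1 and 27.1 scaled fragments in MPs and 591, 671 and 704 in APL cells (difference 4.97, SE 0.21, limma adjusted p = 1.2e-07). Fas, the death receptor, had 15.9, 12.4 and 21.6 in MPs and 548, 506 and 557 in APL cells (difference 4.96, SE 0.21, limma adjusted p = 1.4e-07). The highest MP value of either gene was 27.1 and the lowest APL value 506 scaled fragments. Pmaip1, which codes for the BH3-only protein Noxa, rose from 147, 99.0 and 92.9 to 1057, 938 and 1153 (difference 3.23, SE 0.18, limma adjusted p = 5.9e-07). The other genes called higher were Bax, Bbc3, Tnfrsf10b, Apaf1, Trp53inp1, Btg2, Gtse1, Xpc, Dram1 and Thbs1. Btg2 was a borderline call (limma adjusted p = 0.046) with overlapping libraries, at 930, 449 and 709 in MPs and 1000.3, 879 and 1217 in APL cells. Bax, the pore-forming effector of apoptosis, had a difference of 1.00 and Apaf1, the apoptosome scaffold, of 1.04.

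Phlda3, a target whose product restrains Akt signaling, fell most among the lower p53 targets with a mean of at least 100 scaled fragments. It had 170, 194 and 242 scaled fragments in MPs and 30.6, 35.5 and 39.5 in APL cells (difference -2.48, SE 0.20, limma adjusted p = 5.8e-06). Psrc1, a spindle protein gene, fell by 1.03 and Ddb2, a DNA damage recognition gene of nucleotide excision repair, fell by 0.80 on the log2 scale. The remaining genes called lower were Aen, Eda2r and Plk2. With all libraries scaled to the same total, or with voom weights, 10 targets rather than 6 were called lower. The background moved the same way. Of all genes tested, 4376 of 14877 were called lower with the same total and 4264 of 14595 with voom weights, against 3558 of 14595.

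Among the genes that act on p53, the share called lower was near that of all genes, and none was called higher. Of 20 listed regulators 18 were tested, 5 were called lower (27.8%, background 24.4%) and 0 higher (background 21.7%), and the median difference was -0.32. With voom weights 6 were lower and 0 higher, where 4264 of all 14595 genes tested were lower and 2735 higher. At an unadjusted limma p under 0.05 with no limit on size, 11 of the 18 were lower and 2, Ep300 and Sirt1, were higher. Both missed only the fold threshold (Ep300 difference 0.49, limma adjusted p = 0.016, Sirt1 difference 0.32, limma adjusted p = 0.0043). The share of all genes at this cut is not given here. Chek2, a checkpoint kinase that phosphorylates p53, had 1296, 1301 and 1437 scaled fragments in MPs and 695, 658 and 681 in APL cells (difference -0.99, SE 0.08, limma adjusted p = 5.0e-06). The kinase gene Chek1 fell by 0.77 and Atr, which acts above Chek1, fell by 0.76 on the log2 scale. Npm1, a nucleolar protein that binds Arf, fell by 0.83 (SE 0.12, limma adjusted p = 0.00034). Mdm4, the Mdm2 partner that inhibits p53, fell by 0.65 with overlapping libraries, since MP library 3 had 2743 and APL library 1 had 2786 scaled fragments.

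**Figure D2:**
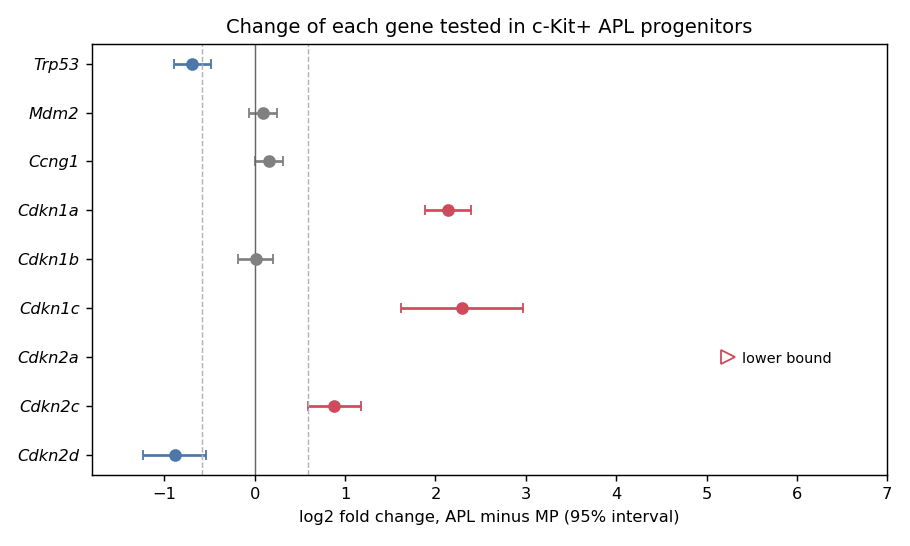
Difference of the 9 tested genes. The horizontal axis is the log2 fold change, APL minus MP, points are limma estimates with 95% intervals, dashed lines mark a 1.5-fold change, and the open arrowhead of Cdkn2a is a lower bound. Cdkn1a, Cdkn1c, Cdkn2a and Cdkn2c lie to the right, Trp53 and Cdkn2d to the left, and Mdm2, Ccng1 and Cdkn1b lie near 0, where the signs of Mdm2 and Cdkn1b turn under other scalings.

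Within the Cip/Kip family, Cdkn1a and Cdkn1c were called higher and Cdkn1b was not called. Cdkn1b (chr6:134920401-134925525) had 815, 849 and 946 scaled fragments in MPs and 903, 831 and 892 in APL cells. The APL values lay inside the MP range, and the difference was 0.01 (SE 0.08, 95% interval -0.18 to 0.20, limma adjusted p = 0.92), with a sign that depended on the scaling. Cdkn1c (chr7:143458339-143461050), which codes for p57, had 10.3, 15.2 and 21.6 in MPs and 73.0, 67.6 and 95.04 in APL cells. The means of 15.7 ± 5.69 and 78.6 ± 14.5 (SD, n = 3 each) were apart in every library, and the fitted level was 4.90-fold higher in APL (difference 2.29, SE 0.30, limma adjusted p = 0.00014). The MP values rest on 11, 16 and 24 fragments before scaling, and on log2(FPKM + 1) the difference was 1.03.

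The composition of the family therefore differed between the groups. The summed FPKM of the 3 genes was 20.2 ± 1.54 in MPs and 36.5 ± 1.31 in APL cells (SD, n = 3 each). Cdkn1b supplied 76.0 ± 0.664% of the sum in MPs and 41.7 ± 3.05% in APL cells. Cdkn1a supplied 22.3 ± 0.935% in MPs and 53.5 ± 3.14% in APL cells, so that the leading Cip/Kip transcript was Cdkn1b in each MP library and Cdkn1a in each APL library. Cdkn1c stayed the smallest, with 1.68 ± 0.434% and 4.76 ± 0.825%. Exact two-sided permutation tests of 3 against 3 libraries cannot go below p = 0.1, and the levels of Cdkn1a and Cdkn1c each reached 0.1, whereas Cdkn1b gave 0.9.

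The amount of p27 is set mainly by degradation through the SCF ubiquitin ligase with Skp2, and its transcription by Foxo factors. The list of 11 genes covers both p27 turnover and its transcription, and all were tested. Of these, 4 were called lower (36.4%, background 24.4%) and 1 higher (9.09%, background 21.7%), and the median difference was -0.47. The calls were mostly of Foxo genes, so these shares do not describe p27 degradation alone. Foxo1 had 240, 264 and 206 scaled fragments in MPs and 63.6, 48.5 and 42.0 in APL cells (difference -2.19, SE 0.20, limma adjusted p = 1.3e-05). Foxo3 fell by 0.91 on the log2 scale, while Foxo4 rose from 1014, 1051 and 1113 to 1889, 2094 and 2196 (difference 0.96, SE 0.08, limma adjusted p = 8.3e-06). Fbxw7, the F-box protein gene that targets cyclin E, fell by 0.74 and Skp1a, the SCF adaptor gene, fell by 0.64. Skp2 had a difference of 0.48 and was not called, nor were Cks1b, Cul1, Rnf123, Cops5 and Usp19. Cdkn1b was level with the MPs within its interval while Foxo1 and Foxo3 were lower and Foxo4 was higher.

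**Figure D3:**
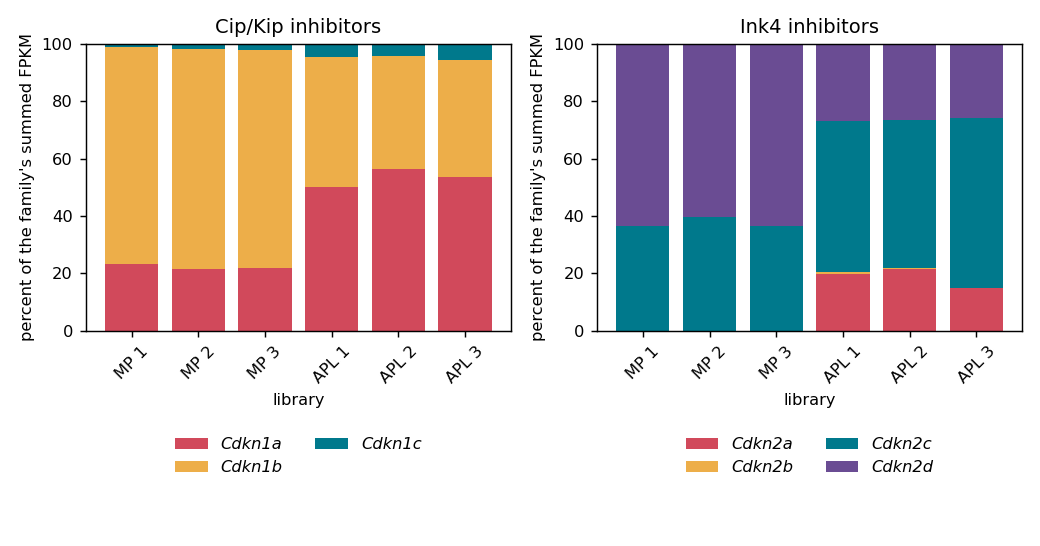
Share of each gene in the summed FPKM of its inhibitor family, in percent (vertical axis), for each of the 6 libraries, Cip/Kip on the left and Ink4 on the right. Cdkn1b is the largest part of the MP bars and Cdkn1a of the APL bars on the left. On the right, Cdkn2d is the largest in MPs and Cdkn2c in APL cells, and Cdkn2a is drawn only in the APL bars. The part of Cdkn2a includes any Arf transcripts.

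In the Ink4 family, Cdkn2a and Cdkn2c were higher and Cdkn2d was lower. Cdkn2a (chr4:89274473-89294619) had 0 fragments in all 3 MP libraries and 111, 119 and 85.2 scaled fragments in APL cells, that is 94, 137 and 69 fragments before scaling. Against a floor of 3 fragments per library, the APL mean of 104.9 ± 17.6 (SD, n = 3) was at least 37.6-fold higher, and the gene was called by limma (adjusted p = 1.3e-07). It passed the filter on low values through the APL libraries alone, so its direction was fixed in advance and its adjusted p is no independent support. With any 1 of the APL libraries left out it was no longer tested. A level of 0 means that up to 3 fragments per library would have been missed, by counting error only.

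The value of Cdkn2a joins the transcripts of p16Ink4a and Arf, which share exons and have start sites 12427 bases apart. The windows before both starts are shown because they differ in base composition. Capitals mark GC boxes (GGGCGG, or CCGCCC on the other strand), which were searched on both strands.
Cdkn2a, Arf start (GRCm38.p6 chr4:89294620-89294869, minus strand): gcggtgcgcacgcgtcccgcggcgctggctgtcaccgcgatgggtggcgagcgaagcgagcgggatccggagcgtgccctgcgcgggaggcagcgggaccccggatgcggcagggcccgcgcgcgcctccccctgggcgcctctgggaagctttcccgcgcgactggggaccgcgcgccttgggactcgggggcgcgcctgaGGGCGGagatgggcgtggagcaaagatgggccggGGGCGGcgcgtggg
Cdkn2a, Ink4a start (GRCm38.p6 chr4:89282193-89282442, minus strand): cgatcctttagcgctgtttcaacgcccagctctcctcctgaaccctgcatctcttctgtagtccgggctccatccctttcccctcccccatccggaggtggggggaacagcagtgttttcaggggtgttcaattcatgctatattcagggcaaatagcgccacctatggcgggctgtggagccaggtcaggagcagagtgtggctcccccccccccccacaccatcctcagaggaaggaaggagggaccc

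The window before the Arf start held 40 CG dinucleotides and 2 GC boxes, and that before the Ink4a start 7 CG dinucleotides and 0 GC boxes, against a median of 6 CG dinucleotides in all windows. The counts of the table cannot say which of the starts gave the APL fragments. Cdkn2b (chr4:89306289-89311032), the neighbor of Cdkn2a that codes for p15, had 0, 0 and 0.902 scaled fragments in MPs and 5.89, 2.60 and 0 in APL cells. Both means lay near the floor of 3 fragments, so that no fold is given, and the gene did not pass the filter. A difference in Cdkn2b was not detectable at this depth.

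Cdkn2c (chr4:109660876-109665372), the p18 gene, had 229, 224 and 286 scaled fragments in MPs and 428, 434 and 497 in APL cells. All APL libraries lay above the MP range. The means were 246 ± 34.3 and 453 ± 38.5 (SD, n = 3 each), and the fitted level was 1.84-fold higher in APL (difference 0.88, SE 0.13, limma adjusted p = 0.00029). Cdkn2d (chr9:21288464-21291209), which codes for p19Ink4d and not for Arf, went the other way. It had 410, 354 and 535 in MPs and 230, 238 and 225 in APL cells, with MP library 3 the highest and the APL libraries close together. The means of 433 ± 92.5 and 231 ± 6.50 (SD, n = 3 each) gave a fitted 1.85-fold lower level in APL (difference -0.89, SE 0.15, limma adjusted p = 0.00079).

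By summed FPKM the Ink4 family held 26.3 ± 4.29 in MPs and 33.1 ± 0.549 in APL cells (SD, n = 3 each). The APL sum includes Cdkn2a, at 6.20 ± 1.17 FPKM against 0 in MPs. The Cdkn2a value joins p16Ink4a with Arf, which is not an Ink4 protein, so the APL sum and shares may be partly Arf. Cdkn2d supplied 62.4 ± 1.84% of it in MPs and 26.4 ± 0.421% in APL cells. Cdkn2c supplied 37.6 ± 1.86% in MPs and 54.6 ± 4.09% in APL cells, and Cdkn2a 0% in MPs and 18.7 ± 3.49% in APL cells. The leading Ink4 transcript was thus Cdkn2d in every MP library and Cdkn2c in every APL library.

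The kinases bound by the Ink4 proteins were measured in the same libraries. Cdk4 had a mean of 309 ± 33.5 FPKM in MPs and 227 ± 14.2 FPKM in APL cells, and its difference of -0.43 in scaled fragments did not pass the fold threshold. Cdk6 had 27.9 ± 7.44 and 36.1 ± 9.07 FPKM with overlapping libraries and was not called. The ratio of the summed Ink4 FPKM to the summed Cdk4 and Cdk6 FPKM was 0.0786, 0.0706 and 0.0847 in MPs and 0.126, 0.127 and 0.124 in APL cells, higher in 3 of 3 APL libraries. The summed Ink4 FPKM in this ratio counts all of Cdkn2a, including any Arf transcripts. Transcript ratios do not give protein ratios.

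Of the D-type cyclins, which activate Cdk4 and Cdk6, Ccnd2 and Ccnd1 had larger differences than any of the 10 genes with fragments in both groups. Ccnd2 (cyclin D2) had 2412, 2728 and 2266 scaled fragments in MPs and 13.0, 13.0 and 17.3 in APL cells (difference -7.33, SE 0.15, limma adjusted p = 5.6e-09). Only 0.322% of all genes tested had a larger decrease. Ccnd1 (cyclin D1), low in both groups, fell from 129, 140.0 and 127 to 23.6, 13.0 and 13.6 (difference -2.96, SE 0.26). Ccnd3 (cyclin D3) had 2848, 2503 and 2844 in MPs and 3501, 4328 and 4054 in APL cells, a difference of 0.53 (SE 0.10, limma adjusted p = 0.00099) that did not pass the fold threshold. Cyclin D3 was thereby the most abundant D-type cyclin transcript in both groups, at 63.8 ± 4.14 FPKM in MPs and 92.5 ± 9.95 FPKM in APL cells.

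Of the 22 listed partners of the inhibitors (CDKs, cyclins, the Rb family and E2F factors), 21 were tested, 6 were called lower (28.6%, background 24.4%) and 2 higher (9.52%, background 21.7%), and the median difference was -0.20. Ccne1 (cyclin E1), the partner of Cdk2, had 1949, 2026 and 2262 scaled fragments in MPs and 668, 751 and 701 in APL cells (difference -1.55, SE 0.08, limma adjusted p = 5.4e-07). Cdk2 itself had a difference of -0.08 (95% interval -0.25 to 0.09) and was not called. E2f6, a repressor E2F gene, fell by 1.496, E2f2 fell by 1.27 and Ccna2 (cyclin A2) fell by 0.86 on the log2 scale. The genes called higher were Rbl2, which codes for the pocket protein p130 (difference 0.82, SE 0.06), and E2f7, a repressor E2F gene (difference 0.67, SE 0.10). Rb1 had a difference of -0.20 and was not called.

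Of 14 listed proliferation genes, all tested, 2 were called lower (14.3%, background 24.4%) and 0 higher (background 21.7%), and the median difference was -0.30. With voom weights 3 were lower and 0 higher, where 4264 of all 14595 genes tested were lower and 2735 higher. At an unadjusted limma p under 0.05 with no limit on size, 10 of the 14 were lower and 1, Mcm5, was higher. Mcm5 missed only the fold threshold (difference 0.29, limma adjusted p = 0.019). The share of all genes at this cut is not given here. Top2a (topoisomerase II alpha) fell by 0.75 and Birc5 (survivin) fell by 0.61 on the log2 scale. Birc5 fell short of the fold threshold without MP library 3 (-0.51) or without APL library 1 (-0.57), which left 1 gene called lower. Mki67 had a difference of -0.05 (95% interval -0.43 to 0.32) with overlapping libraries.

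**Figure D4:**
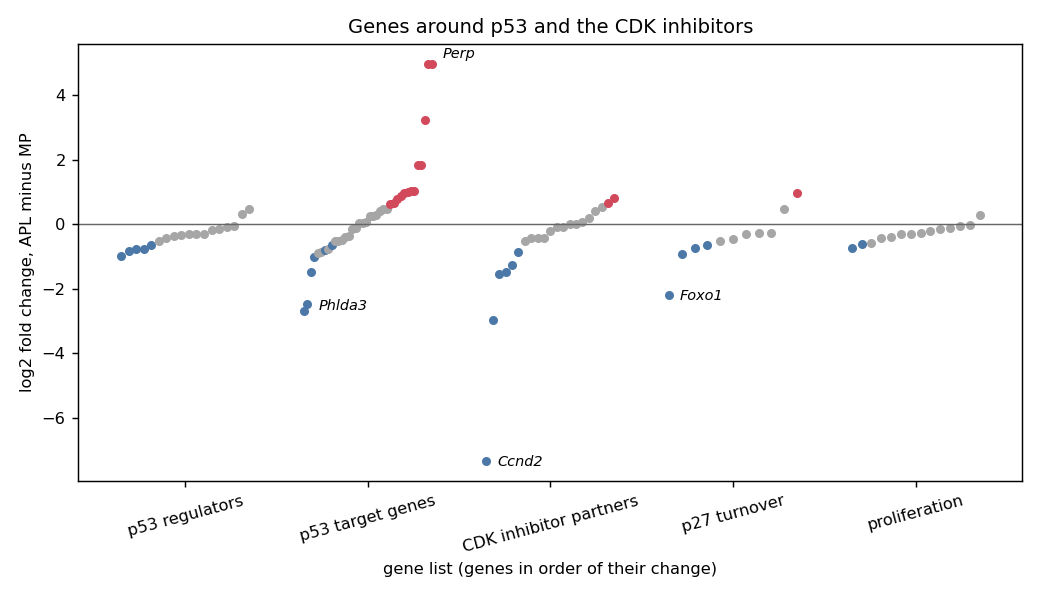
Differences of the tested genes of 5 lists around p53 and the CDK inhibitors. The vertical axis is the log2 fold change, APL minus MP, each point is 1 gene (red called higher, blue called lower, gray not called), and genes are ordered by their change within a list (horizontal axis). Perp, at 4.97, stands at the top of the p53 target genes, and Ccnd2, at -7.33, at the bottom of the partners.

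Ordered by FPKM, the 10 genes in MPs ran from Trp53 through Ccng1 (34.6 ± 1.90), Mdm2 (18.8 ± 0.940), Cdkn2d (16.5 ± 3.05), Cdkn1b (15.3 ± 1.16), Cdkn2c (9.86 ± 1.27), Cdkn1a (4.50 ± 0.330) and Cdkn1c (0.342 ± 0.112) to Cdkn2b and Cdkn2a. The libraries of Mdm2 and Cdkn2d overlapped, as did those of Cdkn2d and Cdkn1b and those of Cdkn2b and Cdkn2a, and all other neighbors in this order were apart. In APL cells the order was Trp53, Ccng1 (38.0 ± 1.52), Mdm2 (20.1 ± 0.471), Cdkn1a (19.5 ± 1.72), Cdkn2c (18.1 ± 1.42), Cdkn1b (15.2 ± 0.638), Cdkn2d (8.74 ± 0.154), Cdkn2a (6.20 ± 1.17), Cdkn1c (1.74 ± 0.339) and Cdkn2b. Mdm2 overlapped with Cdkn1a, and Cdkn1a with Cdkn2c. Cdkn1a moved from the seventh to the fourth place and Cdkn2d from the fourth to the seventh.

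Markers of other blood cells also differed between the groups, in both directions. Of all genes tested, 24.4% were called lower and 21.7% higher. The summed scaled fragments of 8 erythroid genes lay between 42124 and 56367 in MPs and between 205 and 348 in APL cells, with 7 of 7 tested lower, and those of 6 megakaryocytic genes between 2919 and 3914 and between 225 and 309, with 5 of 6 lower. Early granulocytic genes were higher for 3 of 4 (306460 to 342339 in MPs, 770362 to 922558 in APL cells). Of 6 mature neutrophil genes 2 were lower and 2 higher, and of 5 monocytic genes 3 were lower and 2 higher. B lymphoid genes summed to at most 18.0 and T lymphoid genes to at most 279 in any library, with Cd3e at 0 in all MP and Cd3g at 0 in all APL libraries. Of 4 mast cell and basophil genes, which summed to between 1397 and 2069 in MPs and between 761 and 966 in APL cells, 2 were lower (Cpa3 and Fcer1a), 1 was higher (Mcpt8) and 1 was not called (Prss34). The part of these cell types in the differences of the 10 genes was not tested, and in such bulk samples fewer cells of a type and less RNA per cell cannot be told apart.

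The 6 stromal and endothelial genes summed to between 1231 and 1566 scaled fragments in MPs and between 333 and 465 in APL cells, with 3 lower (Pecam1, Col1a2 and Cxcl12), 1 higher (Col1a1) and 2 not called (Cdh5 and Kitl). Pecam1, which made up most of the sum in every library, had 1192, 1097 and 1388 in MPs and 273, 309 and 380.1 in APL cells. Col1a1 had 1.87, 2.86 and 4.51 in MPs and 55.4, 82.4 and 72.8 in APL cells. In the MP libraries Col1a2 had 118, 121 and 163, and Cxcl12, Cdh5 and Kitl had at most 7.62, 0.937 and 2.86. In the APL libraries Col1a2, Cxcl12, Cdh5 and Kitl had at most 6.17, 1.23, 3.47 and 2.47. The part of such cells in the differences of the 10 genes was not tested either. The sorting marker Kit was present in every library, with 10442, 10970 and 10592 in MPs and 5780, 5975 and 6033 in APL cells, and Ly6a (Sca-1) had at most 48.8.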

How the data were processed

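RNA-seq of total RNA from 3 MP and 3 APL libraries was analyzed from 1 table deposited by the authors, in which replicates were not pooled. Its FPKM values are normalized by the authors to transcript length and mapped fragments. Its fragment values are a signal that the authors deposited as estimated fragments scaled by a factor of each library. Each library was divided by its step, the most frequent value near 1. Between 85.3% and 88.0% of nonzero values were then whole (tolerance 0.02), so no count test was run. The submitters' processing notes name CASAVA 1.8, TopHat2 2.0.6 and mm10, while the methods name STAR on mm9, HTSeq-count and DESeq2, and which of them made the table is not given in the sources used here. Listed starts are counted from 0 (7057 RefSeq starts equal the listed start plus 1) and are printed here counted from 1.

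Differences were tested with limma 3.58.1 (lmFit, eBayes with a trend) in R 4.3.3 on log2(scaled fragments + 1), a scale that understates the change of low genes, and other values were computed with Python 3.11.15. The script was checked on simulated data. P-values set the difference of the groups against the spread between the 3 libraries of a group, moderated over all genes tested. The intervals of differences are 95% intervals, and the floor of 3 fragments covers counting error only. The 10 genes and all gene lists were chosen with earlier results of these data known. Named genes of a list are at most 3 called in each direction, with the largest differences, groups that do not overlap and a mean of at least 100 scaled fragments. Ccnd1, Ccnd3, Cdk2, Cdk4, Cdk6, Rb1, E2f2, Ccna2, Skp1a, Skp2, Atr, Mdm4, Ep300, Sirt1, Bax, Apaf1, Mcm5, Mki67, the marker genes and the genes given only by call were added after their values were seen. Trp63, Rprm, Igfbp3, Ccna1 and Pax5 were not analysed here. Promoter windows are from RefSeq (GRCm38.p6), which gave none for Cdkn1c. Alternatives were other pseudocounts, filters, scalings, FPKM, voom weights, thresholds, a replicate block and leaving out each library.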

Additional observations from a re-analysis of the deposited data

How the results depend on the processing

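Across 18 refits, 7 of the 9 tested genes kept their direction and their side of the threshold wherever a value could be computed. Cdkn2a had a value in 14 of them, since it is not tested with a value of at least 1 in all 6 libraries or with an APL library left out, and 3 instead of 4 of the genes were then called higher. Mdm2 turned to -0.0428 with the same total and to -0.0420 with voom weights. Cdkn1b turned to -0.00931 and -0.00976 on FPKM with a pseudocount of 1 and 0.1, to -0.120 with the same total, to -0.00270 with quantile normalization and to -0.121 with voom weights, and lay between -0.0350 and 0.0726 with 1 library left out. The same total and voom weights moved the median of all genes from -0.10 to -0.23 and the lower share of calls from 52.9% to 61.4% and 60.9%. Genes called lower numbered 2205 on FPKM with a pseudocount of 1, against 3558. P53 targets called lower were 10 with the same total and with voom weights, where 4376 and 4264 of all genes tested were called lower. Partners called higher were 1 on FPKM with a pseudocount of 1, with the same total and with voom weights. Proliferation genes called lower were 1 on FPKM with either pseudocount and with median ratio scaling, and 1 to 3 with 1 library left out. All genes called lower were 2205 and 3078 of 13201 on FPKM with a pseudocount of 1 and 0.1. They were 3268 of 14596 with median ratio scaling, and between 2913 and 3507 with 1 library left out. At a fold change over 2, the counts called lower were 0 for the 10 genes, the regulators and the proliferation genes. The counts called higher were 0 for the partners and for the genes of p27 turnover and transcription. The p53 targets called higher were then 8, and the genes of p27 turnover and transcription called lower were 1. The libraries share only a number: the deviations of same-numbered libraries correlated at 0.13, -0.0016 and 0.13 over 11061 genes, and not every library correlated best with its own number. With a replicate block 3589 genes were called lower and 3164 higher, 6673 of 6725 calls were shared, and no call of the 10 genes changed. The count tests planned on recovered reads (edgeR and DESeq2) were not run, because the scaled values did not give whole reads for nearly all genes. Depth limits Cdkn2b and the MP values of Cdkn1c and Cdkn2a.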
